A study of Mus musculus with 14 samples.

Results

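Chondroblasts of the mouse forelimb bud at E11.5 were compared with JAG1-positive distal limb bud mesenchymal progenitors (LMPs) at E10.5, gene by gene over all expressed genes. The members of the comparison are the 3 RNA-seq libraries labelled as S9+COL2+ chondroblasts and the 3 labelled as S9-JAG1+ cells, 6 of the 14 libraries of the series, and they were chosen by these labels. All cells came from pooled forelimb buds of embryos of both sexes that carry the Sox9-IRES-EGFP allele in a mixed Swiss Albino background, whose EGFP, present in S9+ and absent in S9- cells, reports Sox9. After removal of dying cells and of cells positive for CD31, TER119, CD45, EpCAM, GR1 or CD11b, chondroblasts were sorted as Sox9+PDGFRαhi cells and S9-JAG1+ LMPs as Sox9-JAG1+SCA-1- cells. Sox9, Pdgfra, Jag1 and Ly6a, the gene of SCA-1, thus belong to the sort and their differences are given as a check of the labels. The Col2a1 in the name of the chondroblasts was not a sorting marker and JAG1 was not used in sorting the chondroblasts. The label of the S9-JAG1+ cells names no PDGFRα gate, while the study's text describes them as a fraction of PDGFRα-positive cells. Stage and population change together in this comparison and cannot be told apart. To see which distal genes were high in both populations, the 3 libraries of S9+Pαhi osteo-chondrogenic progenitors (OCPs) and the 3 of S9-Pαhi LMPs, both from forelimb buds at E10.5 with the same allele, served as reference. The S9-Pαhi LMPs had been selected as negative for JAG1 and SCA-1.

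Limb buds grow out under signals from the apical ectodermal ridge, which makes FGFs, and from the posterior mesenchyme, which makes SHH. The distal mesenchyme beneath the ridge is kept undifferentiated, and the 5' genes of the HoxA and HoxD clusters are expressed there for the formation of hand and digits. Mesenchymal cells in the core of the bud activate the transcription factor SOX9, condense, and differentiate into chondroblasts, which lay down a matrix of collagen type II and aggrecan that prefigures the skeleton.

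The 3 chondroblast libraries held between 24283536 and 28043776 reads counted on genes, and the 3 S9-JAG1+ libraries between 24421275 and 25823925. Levels are given in CPM, the usual read counts scaled by depth, on library sizes adjusted by the TMM method, in the order of replicates 1, 2 and 3. Up to 3 reads, which cannot be told from absence, correspond to 0.101 to 0.118 CPM in chondroblasts and 0.119 to 0.128 CPM in S9-JAG1+ LMPs, for counting error only. A library of each population stood apart. S9-JAG1+ replicate 1 lay over 2-fold above the median of its population for 25 of 10438 genes, among them Pitx1, Wnt2, Igfbp5, Sparc, Tnc and Gata6, and chondroblast replicate 3 lay over 2-fold below for 55 of 11049 genes, among them Pax1, Irx3, Irx5 and Meis2. Without S9-JAG1+ replicate 1, the log2 fold changes of chondroblasts over S9-JAG1+ LMPs for Sparc and Tnc moved from 2.44 to 3.49 and from 1.31 to 2.57. The p-values measure the spread between libraries of pooled buds, estimated over all 14 libraries, and not that between single embryos. The paper calls the libraries of a population biological replicates. As the RNA is from bulk samples, fewer cells of a type and less RNA per cell cannot be told apart.

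The marker genes differed in the direction the labels call for. Col2a1, which encodes the collagen of cartilage, was at 1274, 1451 and 1886 CPM in chondroblasts and 23.2, 30.97 and 23.7 CPM in S9-JAG1+ LMPs. Acan, which encodes aggrecan, was at 3.43, 10.3 and 14.9 CPM in chondroblasts and 0.343, 0.293 and 0.198 CPM in S9-JAG1+ LMPs, with a wide spread among the chondroblast libraries. Sox9 was at 411, 571 and 625 CPM in chondroblasts and 32.03, 36.8 and 35.6 CPM in S9-JAG1+ LMPs, and Pdgfra at 949.7, 869 and 773 CPM in chondroblasts and 246, 246 and 248 CPM in S9-JAG1+ LMPs. Jag1, the NOTCH ligand of the sort, was at 102, 119 and 137 CPM in chondroblasts and 228, 297 and 364 CPM in S9-JAG1+ LMPs, and Hoxd13, a factor of the digit-forming mesenchyme, at 226, 334 and 346 CPM in chondroblasts and 799, 965 and 1212 CPM in S9-JAG1+ LMPs. None of these 6 genes overlapped between the populations, where 37% of all tested genes lay higher and 33% lower without overlap. Ly6a was near the limit of detection in both, with at most 0.370 CPM.

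Of the 15125 genes tested, 2927 (19.4%) were called. A call required that the log2 fold change reached 1.2 in size and that the p-value of the quasi-likelihood test in edgeR, with Benjamini-Hochberg adjustment, did not exceed 0.1. Of the called genes, 2297 (15.2% of those tested) were higher in chondroblasts and 630 (4.17%) were lower. Fold changes are given on the log2 scale as chondroblasts over S9-JAG1+ LMPs with their standard error, and "higher" and "lower" refer to chondroblasts. At any fold change, 5348 genes (35.4%) were higher and 4618 (30.5%) lower at the same adjusted p, so that the excess of higher genes lay among large differences. It also lay among genes of low level. Of 2076 genes with a mean below 1 CPM, 36.5% were called higher and 7.27% lower, while of 2724 genes with at least 100 CPM, 2.61% were called higher and 3.71% lower. A gene of low level was tested only if some libraries reached the minimum of the edgeR filter. The shares below 1 CPM thus depend in part on that filter. Of the 8859 genes with at least 10 CPM in all 6 libraries, 2.97% were called higher and 2.66% lower. The median log2 fold change of all tested genes was 0.05, and with library totals in place of TMM scaling it moved to 0.18, with 2548 genes called higher and 493 lower.

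At least 1 CPM in every library of a population was reached by 12872 genes in chondroblasts and 12133 in S9-JAG1+ LMPs, and 11927 of them were shared. At 100 CPM or more the order was the other way, with 2387 genes in chondroblasts, 2676 in S9-JAG1+ LMPs and 2091 shared. Per kb of exon, the highest mean level in chondroblasts was that of the imprinted RNA H19, at 4447 CPM per kb against 1518 in S9-JAG1+ LMPs, and the highest in S9-JAG1+ LMPs was that of the elongation factor Eef1a1, at 2682 against 2719 CPM per kb. A large share of the expressed genes differed little. For 3674 tested genes the 95% confidence interval of the log2 fold change lay within 0.5 on both sides of 0, and 3417 of these had at least 10 CPM in all 6 libraries.

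**Figure D1:**
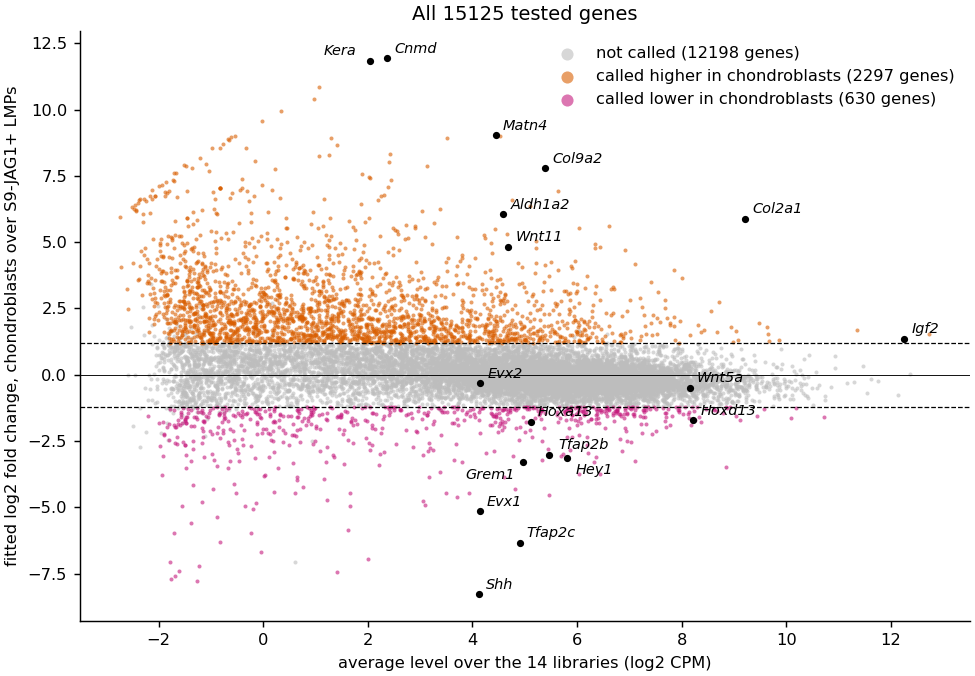
The average level of each of the 15125 tested genes over the 14 libraries (x axis, log2 CPM) is plotted against its fitted log2 fold change between chondroblasts and S9-JAG1+ LMPs (y axis), with called genes in colour and dashed lines at 1.2 and -1.2. The 2297 genes called higher spread mostly over low and middle levels and reach past 10, and the 630 called lower include Shh at -8.27 and Tfap2c at -6.34, while Evx2 and Wnt5a lie between the dashed lines.

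By the rule of 10 genes per direction with a mean log2 CPM of 1 or more and no overlap between the libraries, those higher were Cnmd, Kera, Nkx3-2, Matn4, Sema3d, Col8a1, Pamr1, Prelp, Rtl3 and Barx2. Cnmd encodes chondromodulin, an inhibitor of vessel growth made by cartilage, and was at 16.5, 20.6 and 20.7 CPM in chondroblasts against 0 reads in all S9-JAG1+ libraries, at least 150.0-fold higher when 3 reads per library are taken as the floor. Kera, which encodes the small proteoglycan keratocan, was at 18.5, 16.9 and 18.4 CPM against 0 reads, at least 139.5-fold higher. Nkx3-2, a transcription factor that promotes chondrogenesis, was at 5.72, 9.10 and 12.1 CPM and also without reads in S9-JAG1+ LMPs, at least 69.8-fold higher. Matn4, which encodes a matrilin of the matrix, was at 73.2, 104 and 111 CPM in chondroblasts and 0.385, 0.126 and 0.0396 CPM in S9-JAG1+ LMPs, a log2 fold change of 9.03 ± 0.64 (edgeR adjusted p = 6.58e-08). Sema3d, which encodes a secreted semaphorin, was at 60.7, 76.8 and 83.4 CPM in chondroblasts and 0.171, 0.251 and 0 CPM in S9-JAG1+ LMPs. Among the others, Pamr1 was at least 70.4-fold, Prelp at least 59.4-fold, Rtl3 at least 150.1-fold and Barx2 at least 45.5-fold higher, while Col8a1 differed by 8.94 ± 0.59 on the log2 scale. Single libraries moved these values, that of Matn4 to 10.12 without S9-JAG1+ replicate 1 and that of Col8a1 to 10.01 without S9-JAG1+ replicate 3. In the S9-JAG1+ libraries all 10 stayed below 1 CPM.

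The 10 genes lower by the same rule were Shh, Hoxc10, Epha8, Tfap2c, T, Evx1, Hoxb9, Gbx2, Mamdc2 and Chrna1. Shh, the signal of the polarizing region, was at 0.303, 0.0684 and 0.236 CPM in chondroblasts and 54.2, 62.4 and 74.3 CPM in S9-JAG1+ LMPs, with a log2 fold change of -8.27 ± 0.28 (edgeR adjusted p = 8.43e-10). Epha8, an ephrin receptor, was at 0.101, 0.103 and 0.157 CPM in chondroblasts and 15.1, 15.003 and 15.2 CPM in S9-JAG1+ LMPs, and Mamdc2 at 1.01, 1.13 and 1.22 CPM in chondroblasts and 29.8, 29.96 and 31.3 CPM in S9-JAG1+ LMPs. Tfap2c, a transcription factor of the AP-2 family, was at 1.41, 0.855 and 1.65 CPM in chondroblasts and 102, 109.6 and 103 CPM in S9-JAG1+ LMPs. Gbx2, a homeobox factor, was at 0.874, 0.787 and 1.06 CPM in chondroblasts and 31.98, 24.01 and 26.996 CPM in S9-JAG1+ LMPs, with 43.5% of its exon bases also in the exons of a transcript of the opposite strand, and since strand was not stated to be used in counting, the reads of both cannot be told apart. Overlaps with other genes also cover 28.4% of the exon bases of Shh, 40.7% of Epyc, 64.6% of Igf2, 25.3% of Hottip and 20.6% of Tbx18, whose levels are uncertain to that extent. The same holds for genes named further on, with 62.85% for Hoxd3, 54.6% for Sox4, 52.3% for Hoxd4 and 38.1% for Notum. For Miat, Hoxa3 and Spry1 the shares are 30.4%, 27.1% and 24.4%, and this list is not complete. Hoxc10 was at 3.90, 0.419 and 4.32 CPM in S9-JAG1+ LMPs and at most 1 read in chondroblasts, at least 24.4-fold lower, and its level in S9-JAG1+ replicate 2 was far below the rest. Its call was lost when S9-JAG1+ replicate 1 and chondroblast replicate 3 were both left out.

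The promoters of 4 of the genes the results turn on are shown, with CG dinucleotides in capitals. Hoxd13 (chr2:74668225-74671603) and Hoxa13 (chr6:52258853-52260880), the most 5' genes of their clusters, were lower but high in both populations, and Cnmd and Kera were without reads in S9-JAG1+ LMPs. Each sequence is that of RefSeq on GRCm38.p6, on the strand of the gene, from 250 bases before to 50 bases after the gene's start.
Hoxd13: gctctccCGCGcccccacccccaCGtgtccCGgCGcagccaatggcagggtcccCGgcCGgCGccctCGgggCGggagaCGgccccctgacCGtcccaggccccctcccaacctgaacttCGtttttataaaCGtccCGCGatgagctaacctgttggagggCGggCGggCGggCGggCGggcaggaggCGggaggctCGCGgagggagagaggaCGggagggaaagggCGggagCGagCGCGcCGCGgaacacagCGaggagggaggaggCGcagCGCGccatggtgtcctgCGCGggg
Hoxa13: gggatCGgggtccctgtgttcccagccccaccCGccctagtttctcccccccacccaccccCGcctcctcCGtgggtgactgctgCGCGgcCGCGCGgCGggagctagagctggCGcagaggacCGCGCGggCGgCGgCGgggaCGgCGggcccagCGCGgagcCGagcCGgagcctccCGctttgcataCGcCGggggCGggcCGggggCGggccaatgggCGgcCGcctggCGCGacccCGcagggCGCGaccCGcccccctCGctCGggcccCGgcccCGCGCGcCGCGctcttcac
Cnmd: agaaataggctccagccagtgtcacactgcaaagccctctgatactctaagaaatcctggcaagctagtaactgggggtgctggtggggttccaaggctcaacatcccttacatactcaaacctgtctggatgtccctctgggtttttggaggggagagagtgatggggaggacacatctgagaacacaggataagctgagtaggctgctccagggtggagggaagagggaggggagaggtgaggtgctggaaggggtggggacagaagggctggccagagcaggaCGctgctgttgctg
Kera: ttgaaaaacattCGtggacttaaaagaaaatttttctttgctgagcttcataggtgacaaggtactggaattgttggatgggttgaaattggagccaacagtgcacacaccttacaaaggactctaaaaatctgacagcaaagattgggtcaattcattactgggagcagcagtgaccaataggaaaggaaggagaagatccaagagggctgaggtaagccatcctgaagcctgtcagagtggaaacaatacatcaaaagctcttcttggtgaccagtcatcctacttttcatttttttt
These windows are, in this order, chr2:74667975-74668274 on the + strand, chr6:52260831-52261130 on the - strand, chr14:79662134-79662433 on the - strand and chr10:97606955-97607254 on the + strand. CG was found 37 times in the Hoxd13 window and 45 times in that of Hoxa13, against 1 time each in those of Cnmd and Kera. The ratio of observed to expected CG was 0.904, 0.918, 0.0466 and 0.0809 in these windows, against a median of 0.389 over all 27025 promoters of the table and of 0.752 over the 11743 of tested genes. These windows do not stand for higher and lower genes in general. Of the 8 windows read, the ratio in the other 4 was 0.795 for Acan, 0.216 for Matn1, 0.458 for Tfap2b and 1.13 for Evx2, so that genes called higher and lower overlapped. As 77.6% of the tested genes have a promoter in the table, no comparison of gene sets is given. TATAAA on the forward strand was in the Hoxd13 window and in none of the other 3, and 8.88% of all promoters hold it. ACAAT on either strand, a core of SOX motifs, was found 2 times in the Kera window and in none of the other 3, against 31.6% of all promoters. Such matches are descriptions of the sequence.

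Of the distal genes, 59 were tested in 2 lists, 34 transcription factors and other regulators and 25 genes of signalling. Among the 34 regulators, 16 were called lower and 2 higher, with a median log2 fold change of -1.11, and among the 25 signalling genes, 13 were called lower and 1 higher, with a median of -1.20, against 4.17% and 15.2% of all tested genes. Of all 59, 46 lay lower in every chondroblast library than in every S9-JAG1+ library and 8 higher, against 33% and 37% of all tested genes. Against the mean of OCPs and S9-Pαhi LMPs, 14 were called higher and 10 lower in chondroblasts, where 9.66% of all tested genes were called, 8.52% higher and 1.14% lower. The sort gene Jag1 is among these 59 genes. In S9-JAG1+ LMPs, 28 were called higher and 3 lower against the same libraries, where 9.51% of all tested genes were called, 3.03% higher and 6.47% lower. The question was which of the 59 genes were high in both populations. All reference libraries are from E10.5 and chondroblasts from E11.5, so stage and population cannot be told apart in that comparison either. A gene was counted as high in both when it had at least 10 CPM in each of the 6 libraries and all 6 lay above all 6 libraries of OCPs and S9-Pαhi LMPs. Of the 59 genes, 49 had at least 10 CPM in all 6 libraries, and 13 of these were high in both, while 140 of the 8859 genes at that level (1.58%) met the rule in the whole table. As the lists were chosen with earlier results of these data known, their shares are descriptions and no test. The gate against JAG1 in S9-Pαhi LMPs may also affect other genes expressed in the same cells as Jag1, which was not tested. The 13 genes were the factors Evx2, Hoxa13, Hoxd11, Hoxd12, Hoxd13, Sall1 and Tfap2b, the antisense RNA Hoxa11os, and Bmp2, Jag1, Ptch1, Spry2 and Wnt5a of signalling.

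Evx2 and Spry2 showed the smallest difference between the populations among these 13. Evx2, the homeobox gene next to Hoxd13, was at 27.9, 45.6 and 36.05 CPM in chondroblasts and 25.3, 47.3 and 63.1 CPM in S9-JAG1+ LMPs, and no library of OCPs or S9-Pαhi LMPs exceeded 0.199 CPM. The ranges of chondroblasts and S9-JAG1+ LMPs overlapped, with a log2 fold change of -0.31 ± 0.27 (edgeR adjusted p = 0.335) and a 95% interval of -0.89 to 0.27. Against the mean of OCPs and S9-Pαhi LMPs, its log2 fold change was 7.94 for chondroblasts and 8.25 for S9-JAG1+ LMPs, and as both values share the reference libraries they are only set side by side. Spry2, a feedback inhibitor of FGF signalling, was at 111, 105 and 86.4 CPM in chondroblasts and 91.3, 109 and 113 CPM in S9-JAG1+ LMPs, with an interval of -0.35 to 0.25 for its log2 fold change. Bmp2 was the only one of the 13 above its S9-JAG1+ level in all chondroblast libraries, at 35.1, 38.5 and 30.9 CPM in chondroblasts and 13.1, 21.2 and 24.9 CPM in S9-JAG1+ LMPs, but its level in S9-JAG1+ replicate 1 was only just above the highest S9-Pαhi library at 13.1 CPM, and its log2 fold change of 0.82 ± 0.33 was not called.

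The other 10 genes were lower in every chondroblast library than in every S9-JAG1+ library, and yet above the reference. Hoxa13 was at 27.6, 38.6 and 39.3 CPM in chondroblasts and 101, 113 and 144 CPM in S9-JAG1+ LMPs, and at most 4.84 CPM in the reference libraries. Its log2 fold change between the populations was -1.77 ± 0.16 (edgeR adjusted p = 6.28e-07), while against the reference it was 4.00 in chondroblasts and 5.76 in S9-JAG1+ LMPs. Hoxd13, with a log2 fold change of -1.72 ± 0.19 (edgeR adjusted p = 3.48e-06) between the populations, stood at 2.82 and 4.54 against the reference, whose highest library was at 79.6 CPM. Tfap2b, another AP-2 factor, showed the largest difference of the 13, with 21.6, 20.9 and 24.4 CPM in chondroblasts and 129.8, 183 and 231 CPM in S9-JAG1+ LMPs. It was called lower at -3.02 ± 0.19 (edgeR adjusted p = 2.08e-08), but stood 3.98 above the reference on the log2 scale in chondroblasts and 7.01 in S9-JAG1+ LMPs. Hoxd12 was at 103, 136 and 153 CPM in chondroblasts and 283, 320.2 and 377 CPM in S9-JAG1+ LMPs and called lower at -1.32 ± 0.19, a call that was lost with library totals and without chondroblast replicate 1, both at -1.20.

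Sall1, a zinc finger factor of limb outgrowth, was at 178, 216 and 303 CPM in chondroblasts and 518, 510.0 and 572 CPM in S9-JAG1+ LMPs, with a log2 fold change of -1.20 ± 0.16 just short of the limit. Hoxd11 was at 315, 331 and 424 CPM in chondroblasts and 614, 630.0 and 653 CPM in S9-JAG1+ LMPs, and Hoxa11os, transcribed against Hoxa11, at 178, 248 and 264 CPM in chondroblasts and 348, 552 and 455 CPM in S9-JAG1+ LMPs. Of the exon bases of Hoxa11os, 47.6% are shared with other genes, 26.03% with Hoxa11 on the opposite strand, so reads from the shared part cannot be told apart, and Hoxa11 itself did not meet the rule since its lowest chondroblast library, at 141 CPM, lay below the highest S9-Pαhi library, at 180.3 CPM. Neither Hoxd11 nor Hoxa11os reached the fold limit, with -0.83 ± 0.12 and -0.97 ± 0.17. Wnt5a, a ligand that directs distal outgrowth, was at 352, 422 and 489.9 CPM in chondroblasts and 573, 550.4 and 659.8 CPM in S9-JAG1+ LMPs, and the SHH receptor Ptch1 at 119, 136 and 154 CPM in chondroblasts and 204, 209 and 245 CPM in S9-JAG1+ LMPs. Their log2 fold changes were -0.50 ± 0.13 and -0.68 ± 0.11, and neither was called. Jag1 had been selected for in S9-JAG1+ LMPs and against in S9-Pαhi LMPs, so that its place among the 13 was set in part by the gates. Chondroblasts and OCPs were not gated on JAG1, and the 102 to 137 CPM in chondroblasts compare with 16.9 to 21.3 in OCPs, sorted by the same EGFP and PDGFRα gates a day earlier, and 10.53 to 13.2 in S9-Pαhi LMPs, a log2 fold change of 2.97 over the mean of both. The lower level of Jag1 than in S9-JAG1+ LMPs, -1.31 ± 0.16, was not called with library totals or without S9-JAG1+ replicate 3.

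**Figure D2:**
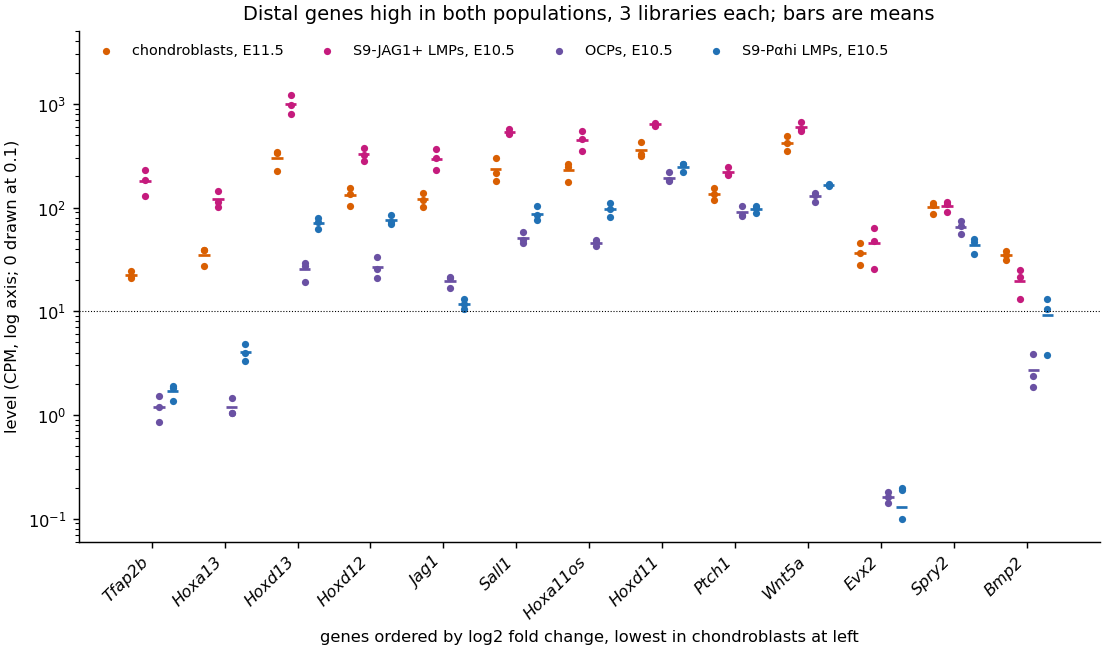
The CPM of the 13 distal genes that were high in both populations are plotted on a log axis for each of 3 libraries of chondroblasts, S9-JAG1+ LMPs, OCPs and S9-Pαhi LMPs, with bars at the means and a dotted line at 10 CPM. The genes run from Tfap2b, with a log2 fold change of -3.02 between chondroblasts and S9-JAG1+ LMPs, to Bmp2 at 0.82, and for each gene the 6 libraries of these populations lie above the 6 of the reference.

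Bmp2 was the least stable member of this set. It was lost, leaving 12 genes, when library totals or a minimum of 20 CPM were used and without chondroblast replicate 2 or 3 or S9-JAG1+ replicate 2 or 3, and it was replaced by the long noncoding RNA Hottip without chondroblast replicate 1. At a minimum of 5 CPM the set held 14 genes, with Hottip added. With an adjusted p of 0.1 or less above the reference at any fold in both populations, met by 27.9% of all tested genes in chondroblasts and 20.8% in S9-JAG1+ LMPs, in place of the separation of libraries, it held 16, as Hoxa11, Hoxd10 and Rspo3 were added. Without S9-JAG1+ replicate 1 it held 14, with Rspo3 added. Hottip, at the 5' end of HoxA, was at 6.93, 10.54 and 12.2 CPM in chondroblasts and 16.6, 29.9 and 30.4 CPM in S9-JAG1+ LMPs against at most 0.407 CPM in the reference. It missed the minimum through chondroblast replicate 1 alone.

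The distal genes called lower included regulators of growth and targets of the signalling centres. After Tfap2c, the largest difference among the regulators was that of Evx1, at 1.48, 1.88 and 3.06 CPM in chondroblasts and 60.8, 77.3 and 87.2 CPM in S9-JAG1+ LMPs. The RNA-binding protein gene Lin28a was at 1.38, 0.753 and 1.02 CPM in chondroblasts and 34.7, 14.1 and 13.95 CPM in S9-JAG1+ LMPs, and the homeobox gene Msx1 at 21.96, 30.8 and 28.1 CPM in chondroblasts and 226, 265 and 287 CPM in S9-JAG1+ LMPs. Both were also expressed in S9-Pαhi LMPs, with means of 19.4 and 284 CPM. Sall4 was at 11.4, 11.9 and 14.1 CPM in chondroblasts and 116, 82.1 and 118 CPM in S9-JAG1+ LMPs, Sall3 at 59.6, 67.001 and 81.1 CPM in chondroblasts and 379, 383 and 437 CPM in S9-JAG1+ LMPs, and Mycn, which drives the growth of progenitors, at 42.7, 42.1 and 35.8 CPM in chondroblasts and 229, 213 and 244 CPM in S9-JAG1+ LMPs. Their log2 fold changes were -3.08 ± 0.26, -2.53 ± 0.13 and -2.51 ± 0.17. The remaining regulators called lower were Etv4, Tfap2a, Lin28b and Lhx2, at -2.34, -1.82, -1.64 and -1.56, and Hottip at -1.38, whose call was lost without chondroblast replicate 1.

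Of the distal signalling genes, Grem1, the antagonist of BMPs that links SHH to the FGFs of the ridge, was at 9.25, 8.45 and 9.15 CPM in chondroblasts and 93.3, 90.3 and 82.2 CPM in S9-JAG1+ LMPs. Cyp26b1, which degrades retinoic acid in the distal bud, was at 240.1, 217 and 269.6 CPM in chondroblasts and 851, 789 and 862 CPM in S9-JAG1+ LMPs. The FGF targets Spry4, Spry1 and Dusp6 differed by -2.34 ± 0.19, -2.01 ± 0.16 and -1.48 ± 0.16 on the log2 scale, and the WNT effectors Tcf7 and Lef1 by -2.83 ± 0.16 and -1.68 ± 0.14. Rspo4, Axin2 and Bmp4 were also called lower, at -2.34, -1.27 and -1.20, and the calls of Axin2 and Bmp4 were lost without chondroblast replicate 3, at -1.10 and -1.05, and with library totals, at -1.14 and -1.08. That of Axin2 was also lost without S9-JAG1+ replicate 2, at -1.18, and that of Bmp4 when at least 1 CPM in 3 libraries was required, at -1.19.

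Only 3 distal genes were called higher. Dlx5 and Dlx6, neighbouring homeobox genes that promote chondrocyte maturation, were both called. Dlx5 ranged over 14.8 to 18.03 CPM in chondroblasts and was at 2.14, 3.31 and 4.88 CPM in S9-JAG1+ LMPs, and Dlx6 was at 2.32, 3.08 and 3.38 CPM in chondroblasts and 0.385, 0.587 and 0.476 CPM in S9-JAG1+ LMPs. The ligand gene Fgf18 was at 24.5, 18.9 and 21.05 CPM in chondroblasts and 5.57, 6.79 and 5.95 CPM in S9-JAG1+ LMPs, a log2 fold change of 1.82 ± 0.17 (edgeR adjusted p = 7.54e-07). The ranges of the 2 populations did not overlap for any of these genes, as for 37% of all tested genes in this direction.

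Along the Hox clusters, the genes called lower lay at the 5' ends, apart from Hoxd1. From the 5' end of HoxD, the log2 fold changes were -1.72 for Hoxd13, -1.32 for Hoxd12, -0.83 for Hoxd11, -0.49 for Hoxd10 and 0.29 for Hoxd9. Further on they were -0.06 for Hoxd8, -0.44 for Hoxd4 and 0.55 for Hoxd3. Hoxd1, at the 3' end, was at 0.336, 0.0342 and 0 CPM in chondroblasts and 0.343, 0.419 and 0.872 CPM in S9-JAG1+ LMPs and lower at -2.05, a call that was lost without S9-JAG1+ replicate 3, at -1.56, while the fold change moved to -4.60 without chondroblast replicate 1. In HoxA, Hoxa13 at -1.77 was followed by Hoxa11 at -0.80 and Hoxa10 at -0.03, and Hoxa9, Hoxa7, Hoxa6 and Hoxa5 lay at -0.40, -0.82, -0.80 and -0.48. Hoxa4, Hoxa3 and Hoxa2, at -0.03, 0.30 and 0.46, were not called either. None of these Hoxa and Hoxd genes was called higher, and with library totals the small differences of Hoxa10, Hoxa4 and Hoxd8 changed sign. Neighbouring genes such as Hoxd11 and Hoxd10 had overlapping 95% intervals, -1.08 to -0.57 and -0.76 to -0.22, and the differences between neighbours were not tested.

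**Figure D3:**
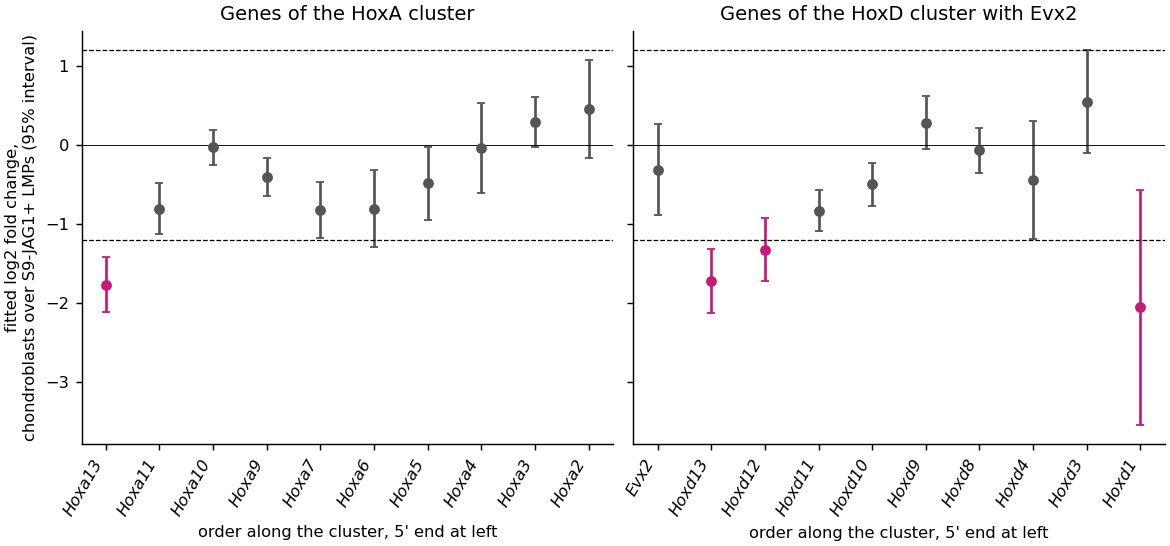
Fitted log2 fold changes between chondroblasts and S9-JAG1+ LMPs (y axis) are plotted for genes of the HoxA cluster and for Evx2 with the HoxD cluster, in their order from the 5' end, as points with 95% intervals and dashed lines at 1.2 and -1.2. Hoxa13, Hoxd13, Hoxd12 and Hoxd1 are called lower, and the central genes Hoxa10 and Hoxd8 lie at -0.03 and -0.06.

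Outside the 2 distal lists, 127 further genes were high in both populations by the same rule. Over all 140 genes, 128 were not called between the populations, 5 were called higher and 7 lower, and as the rule asks for a high level in both, nothing is read from these counts. The 5 genes outside the lists with the highest level over the reference were Tspan18, Pdzd2, Adamts17, Kcnj2 and Cdc42ep3. Tspan18, which encodes a tetraspanin, was at 26.4, 38.8 and 45.2 CPM in chondroblasts and 45.1, 62.3 and 66.4 CPM in S9-JAG1+ LMPs, against at most 4.42 CPM in the reference. Pdzd2, a PDZ domain protein gene, was at 52.2, 67.8 and 68.4 CPM in chondroblasts and 66.6, 101 and 106 CPM in S9-JAG1+ LMPs, and the metalloprotease gene Adamts17 at 40.9, 42.7 and 34.99 CPM in chondroblasts and 43.5, 46.2 and 55.3 CPM in S9-JAG1+ LMPs. Between the populations these 3 genes were not called. The potassium channel gene Kcnj2 was at 28.9, 49.2 and 59.6 CPM in chondroblasts and 13.4, 13.7 and 16.9 CPM in S9-JAG1+ LMPs and called higher at 1.65 ± 0.22, and Cdc42ep3, which encodes an effector of CDC42, was called higher at 1.33 ± 0.21, a call that was lost without chondroblast replicate 3, at 1.11. The ratio over the mean of OCPs and S9-Pαhi LMPs on the log2 scale was 3.42 in chondroblasts and 4.08 in S9-JAG1+ LMPs for Tspan18, and 2.86 and 1.21 for Kcnj2.

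Many genes of cartilage were higher in chondroblasts. Of 43 tested genes of the cartilage matrix, 27 were called higher and 2 lower, where 15.2% and 4.17% of all tested genes were. The median log2 fold change of these matrix genes was 2.54 against 0.05 over all tested genes. The collagens of the cartilage fibril were among those called higher, with Col2a1 at 5.89 ± 0.28 (edgeR adjusted p = 2.65e-09). Col9a2 was at 119, 165 and 202 CPM in chondroblasts and 0.557, 0.922 and 0.714 CPM in S9-JAG1+ LMPs, and Col9a3 at 80.3, 114 and 115 CPM in chondroblasts and 0.728, 1.05 and 1.39 CPM in S9-JAG1+ LMPs. Col9a1, of the same heterotrimer, was at 287, 369.9 and 459 CPM in chondroblasts and 68.2, 72.6 and 51.02 CPM in S9-JAG1+ LMPs, a log2 fold change of 2.54 ± 0.17. Col11a2 was at 30.7, 51.6 and 53.2 CPM in chondroblasts and 1.80, 3.73 and 2.42 CPM in S9-JAG1+ LMPs and Col11a1 at 201, 222 and 227 CPM in chondroblasts and 79.6, 71.7 and 78.5 CPM in S9-JAG1+ LMPs, at log2 fold changes of 4.09 ± 0.41 and 1.499 ± 0.12. Of the proteoglycans and matrilins, Acan differed by 5.08 ± 0.60 (edgeR adjusted p = 7.19e-06), Matn1 was at least 24.96-fold and Epyc at least 17.6-fold higher, and Vcan, which encodes the versican of early condensations, was called higher at 1.29 ± 0.24, a call that was lost without chondroblast replicate 3, at 1.16. The link protein genes went the other way, and both calls were of low levels. Hapln1, whose product ties aggrecan to hyaluronan, was at 2.25, 2.36 and 3.30 CPM in chondroblasts and 9.80, 5.36 and 6.54 CPM in S9-JAG1+ LMPs, a log2 fold change of -1.46 ± 0.25 that fell to -1.18 and was not called without S9-JAG1+ replicate 1. Hapln3 was called lower at -1.21, a call that was lost with library totals, at -1.09, without chondroblast replicate 1, at -1.16, and when at least 1 CPM in 3 libraries was required, at -1.20. Tnc, at 106, 105 and 77.4 CPM in chondroblasts and 84.3, 21.7 and 10.8 CPM in S9-JAG1+ LMPs, was called higher although its range in S9-JAG1+ LMPs reached into that of chondroblasts through replicate 1. Its log2 fold change of 1.31 ± 0.51 rose to 2.57 without that library, and the call was lost without S9-JAG1+ replicate 2, at 0.98, or replicate 3, at 0.83.

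Of 34 tested factors of chondrogenesis, 22 were called higher and none lower, against 15.2% and 4.17% of all tested genes, with a median of 1.97. Sox5 and Sox6, the partners of SOX9 on cartilage genes, were at 99.1, 114 and 139.9 CPM in chondroblasts and 36.5, 35.2 and 40.1 CPM in S9-JAG1+ LMPs, and at 116, 147 and 184 CPM in chondroblasts and 24.5, 20.1 and 21.2 CPM in S9-JAG1+ LMPs. Their log2 fold changes were 1.66 ± 0.14 and 2.76 ± 0.22, and that of Sox9, the gene of the sort, was 3.94 ± 0.20. Foxc1 was at 164, 230.1 and 239.8 CPM in chondroblasts and 3.25, 3.69 and 6.54 CPM in S9-JAG1+ LMPs, a difference of 5.55 ± 0.33 (edgeR adjusted p = 1.22e-08), whereas Foxc2 was called higher at 1.40 ± 0.24, a call that was lost without chondroblast replicate 3, at 1.16. All 3 Runx genes were called higher, at 5.12 for Runx1, 1.91 for Runx2 and 2.20 for Runx3. Nfatc2, Creb5, Foxp2 and Maf were called higher at 5.18, 5.43, 4.76 and 3.59. Sox4 and Sox11, SOXC factors of many progenitors, were not called, with 965, 859.6 and 918 CPM in chondroblasts and 931, 1069 and 1060.4 CPM in S9-JAG1+ LMPs for Sox11.

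**Figure D4:**
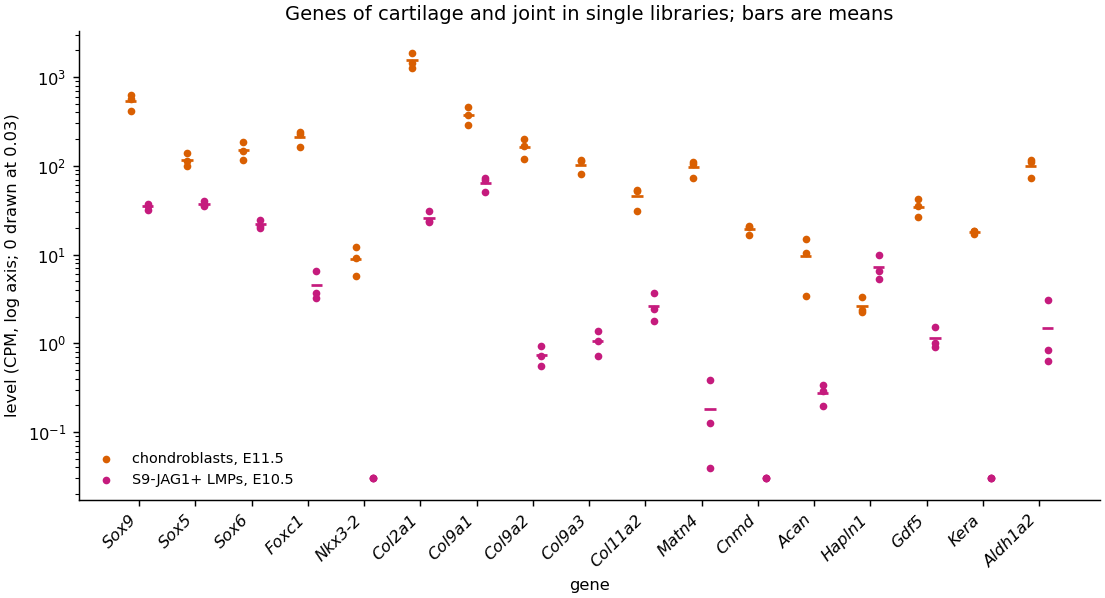
The CPM of 17 genes of cartilage and joint formation are plotted on a log axis for the 3 libraries of chondroblasts and of S9-JAG1+ LMPs, with bars at the means and values of 0 drawn at 0.03. The populations do not overlap for any of these chosen genes, and Hapln1 is the only one that is lower in chondroblasts. Of all tested genes, 37% lay higher and 33% lower without overlap.

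Genes of joints and tendons were higher too, with 18 of 27 called higher, 1 lower and a median of 2.21. Over all tested genes the shares were 15.2% and 4.17%. Gdf5, the BMP family ligand that marks joint interzones, was at 26.4, 42.2 and 35.3 CPM in chondroblasts and 0.899, 1.01 and 1.51 CPM in S9-JAG1+ LMPs, with 40.3% of its exon bases shared with a transcript of the opposite strand. Osr1 and Osr2, factors of joint and connective tissue, differed by 5.06 ± 0.22 and 3.17 ± 0.21, Erg by 3.23 ± 0.21, and the ligands Wnt9a and Wnt4 by 3.90 ± 0.26 and 4.15 ± 0.55, where that of Wnt4 moved to 4.85 without S9-JAG1+ replicate 1. Scx, the factor of tendon progenitors, was at 101, 90.03 and 92.9 CPM in chondroblasts and 16.3, 18.3 and 14.1 CPM in S9-JAG1+ LMPs. Thbs4 was called lower through S9-JAG1+ replicate 1 alone, with 1.61, 1.54 and 1.26 CPM in chondroblasts and 8.22, 1.47 and 2.02 CPM in S9-JAG1+ LMPs, and its log2 fold change moved from -1.40 to -0.24 without it. Of 11 tested genes of hypertrophy and bone, 5 were called higher, and Spp1, which encodes osteopontin, reached 2.79 to 3.87 CPM, at least 26.9-fold higher. Sp7, the factor of osteoblasts, was at 4.07, 4.45 and 5.14 CPM in chondroblasts and 3.38, 2.51 and 2.30 CPM in S9-JAG1+ LMPs and was not called. The count of this list fell to 2 when at least 1 CPM in 3 libraries was asked for.

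Collagens other than those of cartilage were called higher in 15 of 26 and lower in 2, with a median of 1.46. Over all tested genes 15.2% were called higher and 4.17% lower. Col1a1 and Col1a2, of collagen type I, differed by 2.16 ± 0.21 and 1.78 ± 0.16, Col12a1 by 4.796 ± 0.38 and Col8a2 by 4.79 ± 0.35. Of the basement membrane, Col4a1 was at 228, 227 and 260.4 CPM in chondroblasts and 639, 595 and 614 CPM in S9-JAG1+ LMPs and called lower, as was Col13a1 at -3.02. Among 38 genes that fold, modify and export collagen, 13 were called higher and none lower, with a median of 0.94. They included P4ha3, Colgalt2, Lox, Loxl1 and the factors Creb3l1 and Creb3l2, at 4.70, 4.45, 3.88, 3.32, 2.79 and 2.29. The collagen chaperone gene Serpinh1 was not called, with 859, 861 and 787 CPM in chondroblasts and 914, 775 and 751 CPM in S9-JAG1+ LMPs and a 95% interval of -0.20 to 0.27 for its log2 fold change. Of 37 genes for the synthesis and sulfation of glycosaminoglycans, 5 were called higher and 1 lower, shares of the same order as over all genes, with a median of 0.18. Chst11, the chondroitin 4-sulfotransferase, was at 42.4, 56.7 and 70.5 CPM in chondroblasts and 7.49, 8.34 and 7.10 CPM in S9-JAG1+ LMPs, and Papss2, which makes the sulfate donor, at 15.03, 28.9 and 34.8 CPM in chondroblasts and 3.43, 6.87 and 5.59 CPM in S9-JAG1+ LMPs, while the sulfate transporter gene Slc26a2 differed by 0.15 ± 0.12.

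Of 35 genes of the proximal and anterior limb bud, with a median of 0.67, 12 were called higher and 3 lower, against 15.2% and 4.17% of all tested genes. The count of 12 depended on single libraries, with 7 called higher without S9-JAG1+ replicate 3, 8 without chondroblast replicate 1 and 16 without chondroblast replicate 3. Aldh1a2, which synthesizes retinoic acid, was at 72.2, 109 and 115 CPM in chondroblasts and 3.04, 0.838 and 0.634 CPM in S9-JAG1+ LMPs, a log2 fold change of 6.05 ± 0.43 (edgeR adjusted p = 6.70e-08), opposite in sign to that of Cyp26b1, -1.78 ± 0.12. That of Aldh1a2 was 7.06 without S9-JAG1+ replicate 1. Shox2, required for the proximal skeleton, was at 491, 426 and 356 CPM in chondroblasts and 93.9, 78.8 and 65.9 CPM in S9-JAG1+ LMPs, and Tbx18 at 308, 307 and 282 CPM in chondroblasts and 23.9, 27.3 and 27.8 CPM in S9-JAG1+ LMPs. Emx2 was at 45.4, 42.5 and 15.2 CPM in chondroblasts and 0.942, 0.922 and 0.436 CPM in S9-JAG1+ LMPs and Pax9 at 15.5, 27.9 and 33.4 CPM in chondroblasts and 0.514, 0.335 and 0.674 CPM in S9-JAG1+ LMPs. These 5 genes did not overlap between the populations, like 37% of all tested genes in this direction. Meis1 and Meis2, factors of the proximal bud, were called higher at 1.48 and 1.37, but at 115, 86.6 and 15.7 CPM in chondroblasts and 44.96, 24.01 and 15.2 CPM in S9-JAG1+ LMPs for Meis2 the low value of chondroblast replicate 3 lay among those of S9-JAG1+ LMPs. The calls of both were lost without chondroblast replicate 1, at 1.02 for Meis1 and 0.85 for Meis2, and without S9-JAG1+ replicate 3, at 1.15 and 1.04, and that of Meis2 also without chondroblast replicate 2, at 1.197. Without both libraries that stood apart, S9-JAG1+ replicate 1 and chondroblast replicate 3, the fold changes of Meis1 and Meis2 were 2.44 and 2.32. Among those lower were Hoxd1 and Gata6, the latter at 4.91, 4.48 and 3.02 CPM in chondroblasts and 34.9, 10.1 and 10.7 CPM in S9-JAG1+ LMPs. The log2 fold change of Gata6 moved from -2.16 to -1.33 without S9-JAG1+ replicate 1, and it was not called, at -1.19, when chondroblast replicate 3 was left out as well.

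**Figure D5:**
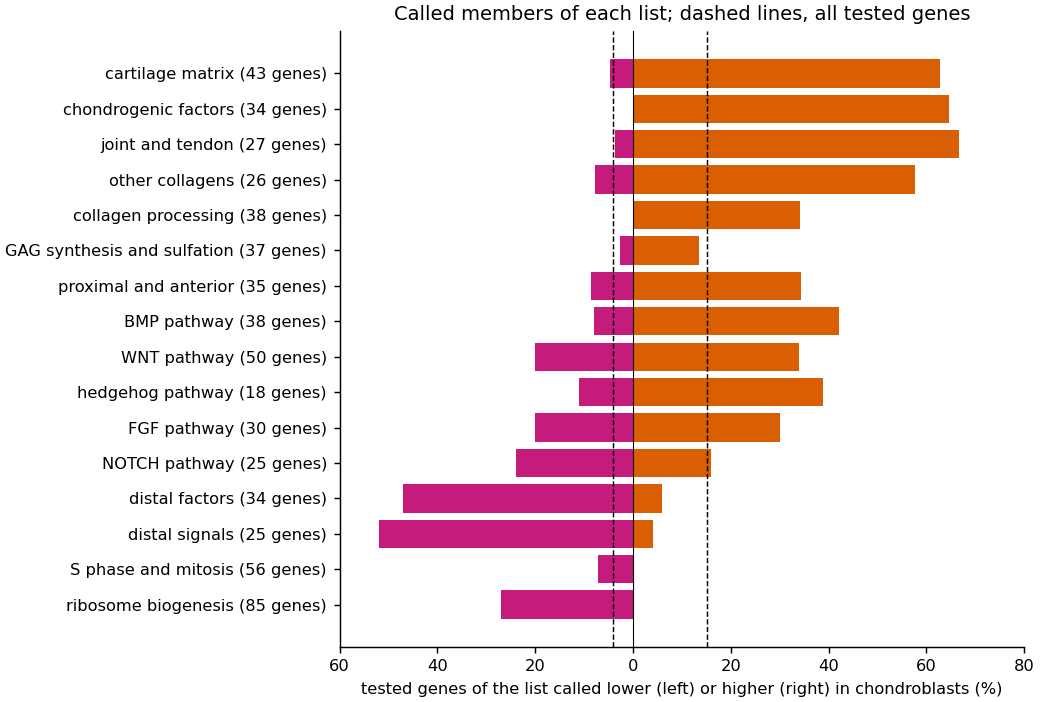
For 16 gene lists, the share of tested genes called higher in chondroblasts (orange, right) or lower (magenta, left) is drawn in percent, with the number of tested genes after each name and dashed lines at the shares over all tested genes, 15.2% and 4.17%. The lists of cartilage, joints and collagens extend to the right, those of distal genes and ribosome biogenesis to the left, and the WNT and FGF pathways to both sides.

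Of 38 genes of the BMP pathway, 16 were called higher and 3 lower, against 15.2% and 4.17% of all tested genes, with a median of 0.84. Among the receptors, Bmpr1b, required for digit cartilage, was at 67.1, 86.8 and 101 CPM in chondroblasts and 4.71, 3.98 and 5.11 CPM in S9-JAG1+ LMPs, while Bmpr1a differed by only 0.47 ± 0.08. The ligands Gdf5, Gdf6 and Gdf10 were called higher at 4.92, 1.84 and 2.11, and Bmp4 was called lower. Of the extracellular inhibitors, Bmper was at 26.3, 35.8 and 37.1 CPM in chondroblasts and 0.128, 0.0838 and 0.198 CPM in S9-JAG1+ LMPs, Chrdl1 at 90.3, 131 and 143 CPM in chondroblasts and 9.85, 9.56 and 8.40 CPM in S9-JAG1+ LMPs, and Nog, which encodes noggin, at 6.93, 10.1 and 10.1 CPM in chondroblasts and 1.46, 1.76 and 1.07 CPM in S9-JAG1+ LMPs. The fold change of Gdf10 was 3.08 without S9-JAG1+ replicate 1. Fst was called higher at 4.95, and at 5.83 without S9-JAG1+ replicate 3, while Grem1 at -3.31 and the pseudoreceptor gene Bambi at -1.34 were called lower. The target genes Id1, Id2 and Id3 were not called, at 0.40, 0.88 and 0.72, and Id4 was, at 2.01.

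Of 50 genes of the WNT pathway, 17 were called higher and 10 lower, against 15.2% and 4.17% of all tested genes, with a median of 0.48. Among the ligands, Wnt11 was at 59.2, 50.95 and 59.2 CPM in chondroblasts and 1.93, 1.89 and 2.10 CPM in S9-JAG1+ LMPs, one of the clearest differences of the pathway at 4.84 ± 0.18 (edgeR adjusted p = 8.43e-10). Wnt2 was called lower only through S9-JAG1+ replicate 1, with 1.177, 1.78 and 0.118 CPM in chondroblasts and 15.2, 1.68 and 2.34 CPM in S9-JAG1+ LMPs and a log2 fold change of -0.95 without it, while leaving out chondroblast replicate 2 moved -2.62 to -3.28. The receptor genes Fzd8, Fzd9, Fzd5 and Lgr5 were called higher at 3.46, 3.65, 2.45 and 2.50, and Fzd10 was at 20.1, 18.1 and 16.96 CPM in chondroblasts and 147, 135 and 151 CPM in S9-JAG1+ LMPs. The secreted inhibitor Sfrp2 was at 251, 309 and 324 CPM in chondroblasts and 49.8, 39.3 and 36.8 CPM in S9-JAG1+ LMPs, and Dkk2 and Wif1 were higher at 2.21 and 2.09, while Notum and Dkk1 were lower at -3.87 and -2.71. The nuclear effector Tcf7l2 was higher at 1.83, opposite in sign to Tcf7 and Lef1.

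In the FGF pathway, 9 of 30 genes were called higher and 6 lower, against 15.2% and 4.17% of all tested genes, with a median of 0.01. Of the receptor genes, 3 were called higher. Fgfr3, a brake on cartilage growth, was at 49.1, 59.1 and 73.1 CPM in chondroblasts and 5.78, 4.78 and 4.797 CPM in S9-JAG1+ LMPs, Fgfr2 at 132, 166 and 164 CPM in chondroblasts and 24.4, 18.3 and 11.9 CPM in S9-JAG1+ LMPs, and Fgfr4 was higher at 2.75, while Fgfr1 differed by 0.61 ± 0.09 and was not called. The 6 genes called lower, Etv4, Spry4, Spry1, Il17rd, Dusp4 and Dusp6, are targets or feedback inhibitors of FGF signalling, and Il17rd was at 159.8, 149 and 153 CPM in chondroblasts and 559, 539.5 and 601 CPM in S9-JAG1+ LMPs. Not all genes of this kind were lower. Spry3 and the related Spred3 were called higher, with log2 fold changes of 1.13 to 1.38 and 1.24 to 1.48 over the alternatives. The call of Spry3 was lost without chondroblast replicate 1 or 2. The ligand Fgf10, which the mesenchyme sends to the ridge, was at 40.5, 52.3 and 58.2 CPM in chondroblasts and 91.97, 92.6 and 103 CPM in S9-JAG1+ LMPs and not called.

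In the hedgehog pathway, 7 of 18 genes were called higher and 2 lower, against 15.2% and 4.17% of all tested genes, with a median of -0.11. The co-receptors Boc and Cdon were at 217, 281 and 275 CPM in chondroblasts and 48.8, 61.4 and 53.3 CPM in S9-JAG1+ LMPs, and at 263, 244 and 194 CPM in chondroblasts and 60.8, 58.1 and 39.3 CPM in S9-JAG1+ LMPs. Gli2 and Hhip were higher at 1.32 and 2.08, and Gli1, a direct target, was at 65.01, 84.6 and 82.9 CPM in chondroblasts and 108, 168 and 122 CPM in S9-JAG1+ LMPs and not called. Shh was among the genes called lower. Of 25 genes of the NOTCH pathway, 4 were called higher and 6 lower, Jag1 of the sort included, with a median of -0.10. The share called higher was near the 15.2% of all tested genes, of which 4.17% were called lower. The target Hey1 was at 22.03, 20.5 and 19.7 CPM in chondroblasts and 183, 161 and 202 CPM in S9-JAG1+ LMPs, and Lfng and Hes7, genes of the segmentation clock, were lower at -1.90 and -1.61. Maml2 and Notch1 were higher at 3.05 and 1.68. Heyl, of the same family as Hey1, and the ligand gene Dll4 were also called higher. Their log2 fold changes were 1.88 to 2.27 and 1.92 to 2.43 over the alternatives, so genes of this pathway went both ways. Dll1, at 0.605, 0.821 and 0.668 CPM in chondroblasts and 0.300, 0.293 and 8.05 CPM in S9-JAG1+ LMPs, was called lower through S9-JAG1+ replicate 3, at -2.05, and without it the log2 fold change was 1.19.

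Of 85 genes of ribosome biogenesis, 23 were called lower and none higher, with a median of -0.99. All 85 were lower at an adjusted p of at most 0.1 at any fold. Among all tested genes, 4.17% were called lower, 15.2% higher, and 30.5% were lower at any fold. Nop2, a methyltransferase for ribosomal RNA, was at 47.7, 47.2 and 47.04 CPM in chondroblasts and 129, 146 and 141 CPM in S9-JAG1+ LMPs, and the helicase gene Ddx21 at 142, 129 and 139 CPM in chondroblasts and 377, 382 and 378 CPM in S9-JAG1+ LMPs. With library totals, which move all fold changes up, 14 were called lower. Of 56 genes of S phase and mitosis, with a median of -0.60, 4 were called lower and 49 were lower at any fold at that adjusted p. The shares over all tested genes were again 4.17% and 30.5%. Without chondroblast replicate 1 the count of 4 called lower was 7, and with library totals 1. Mki67, the marker of cycling cells, was at 673, 625 and 728 CPM in chondroblasts and 738, 747 and 761 CPM in S9-JAG1+ LMPs, with a 95% interval of -0.52 to 0.22 for its log2 fold change. Of the regulators of G1, Cdkn1c, an imprinted inhibitor of the cell cycle, was at 1112, 1086 and 1029 CPM in chondroblasts and 293, 274 and 279 CPM in S9-JAG1+ LMPs, and Cdkn1b differed by 0.96 ± 0.09, while Cdk6 was at 69.5, 62.2 and 62.9 CPM in chondroblasts and 164, 153 and 178 CPM in S9-JAG1+ LMPs. Among genes of embryonic growth, Lin28a, Sall4, Mycn, Trim71, Arid3a, Arid3b and Lin28b were called lower, with 20.3, 19.5 and 23.4 CPM in chondroblasts and 112, 98.7 and 115 CPM in S9-JAG1+ LMPs for Trim71. The imprinted genes H19 and Igf2 were called higher at 1.55 and 1.37, with Igf2 at 6056, 6452 and 6729 CPM in chondroblasts and 3018, 2249 and 2198 CPM in S9-JAG1+ LMPs. The ligand Igf1 and the binding proteins Igfbp3 and Igfbp5 were higher at 3.21, 4.08 and 3.65, and without S9-JAG1+ replicate 1 the values of Igf1 and Igfbp5 were 4.19 and 4.77.

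Marker genes of other cell types were low in both populations, with exceptions. Of 14 tested genes of muscle, 9 were called higher and 2 lower, against 15.2% and 4.17% of all tested genes. The summed level of these 14 was 124 to 151 CPM in chondroblasts and 7.502 to 9.805 in S9-JAG1+ LMPs. Eya2, which limb mesenchyme also expresses, was at 16.01, 15.5 and 17.2 CPM in chondroblasts and 0.514, 0.503 and 0.198 CPM in S9-JAG1+ LMPs, whereas Myod1 and Myog, which define muscle, stayed below 1 CPM but were called higher, at least 5.26-fold and 5.62-fold. Of those lower, Des lost its call without S9-JAG1+ replicate 1, at -1.03, and Pax3 without S9-JAG1+ replicate 3, at -0.41. Over 10 genes of neural crest and glia the sum was 56.7 to 63.5 against 25.4 to 33.7 CPM, and Erbb3 and Sox10 were at 9.69, 13.003 and 18.3 CPM in chondroblasts and 0.171, 0.210 and 0.0396 CPM in S9-JAG1+ LMPs, and at 2.96, 2.36 and 3.02 CPM in chondroblasts and 0, 0.0838 and 0.0396 CPM in S9-JAG1+ LMPs. Over 14 erythroid genes it was 59.2 to 103 against 5.43 to 54.8 CPM, and as identical pairs of globin genes have identical counts, their levels are uncertain. Over 11 genes of ectoderm it was 23.9 to 29.2 against 9.93 to 14.6 CPM, and over 12 of endothelium 40.3 to 65.3 against 24.4 to 27.5, and Erg made up most of it in chondroblasts, while Pecam1 was at 0.639, 0.719 and 0.550 CPM in chondroblasts and 0.300, 0.168 and 0.436 CPM in S9-JAG1+ LMPs. Of leukocyte genes 1 was tested, and it was not called. Called higher were 4 of the 10 genes of neural crest and glia and 7 of the 11 of ectoderm, with 1 and 2 called lower. Of the 14 erythroid genes 5 were called higher and 0 lower, with both members of the globin pairs counted. Of the 12 endothelial genes 1 was called higher and 2 lower. Over all tested genes 15.2% were called higher and 4.17% lower. Genes of the presomitic mesoderm and tail went the other way, with 6 of 10 called lower and 1 called higher. Shares over all tested genes were 4.17% lower and 15.2% higher. The gene called higher, at 2.61 ± 0.61, was the ligand gene Fgf8, which is also in the list of ectoderm. T, which encodes brachyury, was at 0.303, 0.137 and 0.236 CPM in chondroblasts and 5.35, 10.4 and 23.8 CPM in S9-JAG1+ LMPs. Cdx2 was at 1.24, 1.68 and 3.81 CPM in S9-JAG1+ LMPs, at least 19.03-fold lower in chondroblasts. Both T and Cdx2 were highest in S9-JAG1+ replicate 3, as was Dll1. Per the paper, T is also a gene of posterior or distal limb bud mesenchyme, so it need not mark other cells. Of 6 genes of the hindlimb, 3 were called lower, and Pitx1, at 1.61, 1.30 and 1.14 CPM in chondroblasts and 23.6, 2.72 and 3.77 CPM in S9-JAG1+ LMPs, lost its call without S9-JAG1+ replicate 1, at -1.26, and in most other alternatives. The part of such cells in the other differences was not tested.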

How the data were processed

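RNA-seq was done on 14 pooled forelimb bud samples, 6 of them in this comparison. Per the study's methods, poly(A)+ libraries were read as single-end 50-cycle reads and aligned to mm10 with STAR, keeping 1 position for reads that map to several. The authors deposited raw counts per gene, made with QuasR 1.18.0 from reads that start in RefSeq exons. The use of strand is not given in the sources used here. Groups were taken from the sample titles.

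The counts as deposited were fitted in edgeR 4.0.16, with all 14 libraries in one quasi-likelihood model (filterByExpr, TMM, a mean per population, no covariate), and p-values were adjusted by Benjamini-Hochberg over the 15125 tested of 24454 genes. A call needed a log2 fold change of 1.2 or more in size with an adjusted p not over 0.1. Totals of 24283536 to 28043776 counts make 1 CPM equal to 24.28 to 28.04 reads, and limits from counts cover counting error only. Tested on simulated data of 14770 genes, the fit of this comparison recovered 57 of 66 genes changed by 1.5 on the log2 scale, 62 of 65 at 2 and 64 of 64 at 3, with 4 false calls. In the simulation only these genes differed, in chondroblasts and about equally up and down, with the spread taken from the fit. In the data far more genes differed and most called genes were higher. The simulation therefore checks the code and gives no error rate for this comparison.

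Named genes were the genes of the sort and labels, the 10 largest called differences per direction, distal genes called or high in both, the up to 5 largest called members per direction of each list, and the 5 genes outside the lists highest over the reference. Other list members were named for their role in a pathway after their values were seen. The members and the lists were chosen with earlier results of these data known. Alternatives were RLE size factors, library totals, other filters and limits, DESeq2 1.42.0, only the populations compared, a replicate block and leaving out each library. Replicate numbers did not pair the samples. Promoters came from RefSeq (GRCm38.p6) and exon overlaps from a GENCODE annotation of the same build. Some genes of the lists are not reported here.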

Additional observations from a re-analysis of the deposited data

How the results depend on the processing

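The 2927 called genes between chondroblasts and S9-JAG1+ LMPs became 2258 when at least 1 CPM in 3 libraries was required and 3401 with no filter but 1 count, 2902 with DESeq2 and 2621 with only these populations in the fit. Leaving out each library in turn gave 2705 to 2914. With no limit on the fold change there were 9966 (5348 higher, 4618 lower), and against the mean of OCPs and S9-Pαhi LMPs 7983 for chondroblasts (4227 higher, 3756 lower) in place of 1461, and 6589 for S9-JAG1+ LMPs (3145 higher, 3444 lower) in place of 1438, since that limit removes small differences by construction. The number of distal genes high in both ran from 12 to 16. Without both libraries that stood apart, an alternative chosen after seeing the data, 2818 genes were called and 14 distal genes were high in both. Of 246 named genes called, 203 kept call and direction in all their alternatives, 43 lost the call in at least 1, and Dll1 alone reversed, at 1.19 without S9-JAG1+ replicate 3, while leaving out the other libraries moved it to as low as -2.63. The cause was not tested.

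The replicate numbers are shared by name only. Deviations of same-numbered libraries correlated at 0.0113, -0.0326 and 0.0538, and with the replicate number as a block 2943 genes were called, 2908 of them shared with the fit without it.

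Depth limits genes of low level. Of the genes called higher, 350 had at most 3 reads in every S9-JAG1+ library, so that only a lower bound of their fold change is known, and 27 of those called lower had at most 3 reads in every chondroblast library.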

Other observations

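Beyond the Hox clusters, on the side of the Evx genes, 8 genes lie within 1 Mb, 4 at HoxA and 4 at HoxD, and were examined after their values were seen. At HoxD, Lnpk, 74 kb from Evx2, was high in both populations, with 86.4, 91.3 and 89.8 CPM in chondroblasts and 85.6, 99.2 and 104 CPM in S9-JAG1+ LMPs, against means of 52.6 CPM in OCPs and 55.8 in S9-Pαhi LMPs. At HoxA, Hibadh, 228 kb from Evx1, was high in both, with 37.7, 42.7 and 39.8 CPM in chondroblasts and 63.5, 69.3 and 69.5 CPM in S9-JAG1+ LMPs, against 22.6 and 30.9 CPM. Jazf1, 450 kb away, was at 8.88, 9.86 and 7.77 CPM in chondroblasts and 10.2, 11.7 and 12.7 CPM in S9-JAG1+ LMPs, against 1.54 and 2.66 CPM, and missed the minimum of 10 CPM in chondroblasts. The other 5, Tax1bp1, Creb5, Atp5g3, Atf2 and Chn1, did not meet the rule. Over all genes at that level, 1.58% met it.

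Of 8 noncoding RNAs that stay in the nucleus, 4 were called higher in chondroblasts and none lower, against 15.2% and 4.17% of all tested genes. The median log2 fold change of the 8 was 1.42 against 0.05 over all tested genes. The 4 called higher were Meg3, Rian, Mirg and Miat, of which the first 3 lie together in an imprinted cluster. Meg3 was at 213, 214 and 129.9 CPM in chondroblasts and 60.4, 67.4 and 49.1 CPM in S9-JAG1+ LMPs and Rian at 306, 312 and 204 CPM in chondroblasts and 71.97, 77.6 and 63.6 CPM in S9-JAG1+ LMPs. The ranges of the populations did not overlap for either, as for 37% of all tested genes in this direction.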
